A study of Mus musculus with 2 samples.

Results

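The genes described here encode the receptors for retinoic acid (Rara, Rarb and Rarg), their retinoid X receptor partners (Rxra and Rxrb), the intracellular binding proteins Crabp1 and Crabp2, the synthesis enzyme Aldh1a2 and the uptake receptor Stra6. They were taken by name, and these 9 of the 21887 protein-coding genes on mm10 are the members. The locus of each gene was its RefSeq record with 20 kb on each side, so internal promoters were included. H3K4me1, a histone mark found at enhancers and beside promoters, was mapped by ChIP-seq. The cells were E14TG2a.4, which the labels give as male embryonic stem cells of strain 129/Ola with an age of 3.5 days. The labels name 2 biological replicates of this 1 line from the same donor, with no treatment and no second condition. No control library was analysed here. With 1 group there is no test between conditions, and mean and SD describe these 2 libraries only.

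Retinoic acid is made from retinol in sequential oxidation steps and acts in the nucleus on heterodimers of a retinoic acid receptor and a retinoid X receptor. These bind paired copies of a short half-site and, without ligand, recruit corepressors. Retinoic acid is a widely used inducer of differentiation in embryonic stem cells.

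The Rarb promoter is shown first, because it alone among the promoter windows of the members held the repeat of half-sites that these receptors bind. RefSeq promoters on GRCm38.p6 (the mm10 build), from 250 bases before to 50 after each start, were found for 8 of the 9 genes, with 17 starts in all. Each was searched on both strands for direct repeats of any pair of the half-sites AGGTCA or AGTTCA or GGTTCA or GGGTCA with 5, 2 or 1 bases between them. A repeat spaced by 5 bases was present in 0.08% of the 21263 windows of protein-coding genes, one spaced by 2 in 0.0894% and one spaced by 1 in 0.183%. Among the 17 windows of the members there was 1 match, with spacing 5, at the RefSeq start of Rarb. The 120 bases before that start follow, on the minus strand, with the half-sites in capitals. The match lies from 53 to 37 bases upstream of the start, at chr14:16575513-16575529.
Rarb, chr14:16575477-16575596: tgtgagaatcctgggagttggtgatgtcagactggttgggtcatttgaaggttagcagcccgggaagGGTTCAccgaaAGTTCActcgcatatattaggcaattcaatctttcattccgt
A match describes letters in this window and shows no binding.

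The 9 loci ranged from among the most to among the least covered of all genes. Coverage is the percent of a locus that lay in peaks. It was 74.5% in replicate 1 and 70.1% in replicate 2 at Rara, and 74.2% and 69.8% at Rarg. At Rarb it was 0.631% and 0.922%. Thus Rara and Rarg had 72.3% ± 3.14 and 72.0% ± 3.14, and Rarb had 0.777% ± 0.206 (SD, n = 2 here and below). The median of all genes was 12.8%, with quartiles at 2.12% and 30.9%. Rara and Rarg lay at percentiles 99.3 and 99.2 of all genes, and Rarb lay at 19.2. Between these extremes, coverage ranked in descending order from Crabp2 (48.2% and 47.4% in the replicates) through Rxrb (41.4% and 36.6%), Stra6 (28.6% and 28.2%) and Rxra (25.2% and 22.4%) to Crabp1 (14.7% and 12.2%) and Aldh1a2 (5.20% and 5.14%). The replicate values of neighbours in this order did not overlap, except those of Rara and Rarg.

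**Figure D1:**
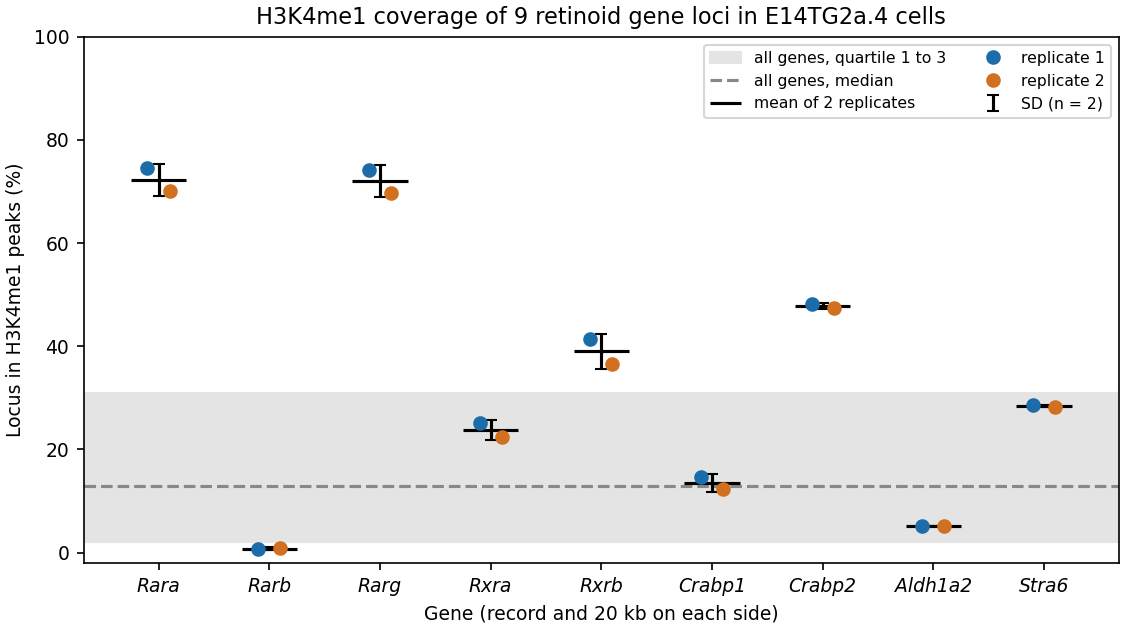
Percent of each locus (gene record and 20 kb on each side) in H3K4me1 peaks, for both replicates, with the mean and SD (n = 2); the shaded band runs from the lower to the upper quartile of 21887 genes and the dashed line is their median. Rara and Rarg sit at 72.3% and 72.0%, and Rarb, at 0.777%, is the only one of the 9 below the band.

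Of the 9 loci, 7 were above the median of all genes, which by definition 50% of genes exceed, and 4 were above the upper quartile. Their median was 28.4%, against 12.8% for all genes. Rarb and Aldh1a2 were below the median. Crabp1 was close to it, and in replicate 2 its 12.2% fell below the median of that replicate, 12.6%. Coverage was lower in replicate 2 than in replicate 1 at 8 of the 9 loci, against 48.4% of all genes, and only Rarb went the other way. All 9 loci held at least 1 replicated peak (a peak the authors kept as replicated), as did 83.3% of all gene loci. The loci held 168 of the 226060 replicated peaks, with 237 peaks in replicate 1 and 248 in replicate 2. Of the 168, 159 were overlapped by peaks of both replicates, or 94.6%, against 91.4% of all replicated peaks. No list gives read counts, so depth is unknown. Embryonic stem cell markers (Klf2, Sall4, Tbx3, Tfcp2l1, Tdgf1 and Foxd3) had loci covered from 43.8% to 77.6%, with a promoter peak at 5 of 6. The 5 feeder fibroblast markers ranged from 0% at Dcn to 36.5% at Col1a1, with a median of 23.5% and promoter peaks at 3. Of these 5, 3 were above the median of all genes, as were all 6 stem cell markers. Among all genes, 72.8% had a promoter peak. Whether feeder cells were present was not tested. The mark is not a measure of expression, so these values describe chromatin only.

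Among the receptor genes, Rara and Rarg were covered over most of the gene and over more than 50% of each flank. Rara, on chromosome 11 from 98927800 to 98974942, held 34 replicated peaks. In replicate 1, 89.2% of the gene record was covered, and in replicate 2, 83.3%. The 20 kb upstream had 58.8% and 56.4%, and the 20 kb downstream had 55.6% and 52.5%. With replicated peaks no more than 1 kb apart merged, a domain of 38884 bp contained the 5' end of the Rara record, from 98921072 to 98959955. It was number 148 by width of 110533 such domains in the genome, and the widest at any of the 9 loci. The widest single peak, of 8821 bp from 98922004 to 98930824, also lay across that 5' end and reached into the record of Cdc6, a replication licensing gene. The peak with the highest signal value in this locus was intragenic, from 98965879 to 98969437, 1.01 kb past the internal start at 98964872. Its signal value of 13.6, given by the authors for each peak, ranked 314 in the replicated list. No stretch of the Rara locus longer than 3980 bp was free of peaks in both replicates.

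Rarg, on chromosome 15 from 102234938 to 102257522, differed in having as much coverage downstream as in the gene. Its record had 83.8% in replicate 1 and 75.9% in replicate 2, the downstream 20 kb had 80.5% and 76.3%, and the upstream 20 kb had 57.1% and 56.3%. Its widest peak, 10146 bp from 102230143 to 102240288, lay over the 3' end of Rarg and reached into Itgb7, an integrin gene. A pair of peaks shared the highest signal value, 15.3, at rank 52 of the replicated list. One, from 102254720 to 102257125, began 397 bp downstream of the first start of Rarg. The other, from 102211924 to 102218733, lay in the records of Zfp740 and Itgb7. Records of other protein-coding genes took up 30.1% of the Rara locus and 28.9% of the Rarg locus. Outside those records coverage was 81.4% and 76.1% at Rara and 72.5% and 68.1% at Rarg, so without the neighbours it was higher at Rara and slightly lower at Rarg.

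Rarb was the exception. Its record on chromosome 14 runs for 651 kb, from 16430839 to 17082331 on the minus strand, and 0.546% of it was covered in replicate 1 and 0.694% in replicate 2. The locus held 10 replicated peaks, of 302 to 1383 bp, and the highest signal value was 4.29, at rank 108156. Their median width was 377 bp, against 692 bp for all replicated peaks. Both replicates covered only 41.0% of the bases that either covered, against 67.9% over the genome and 84.9% at Rara. A stretch of 180950 bp, from 16790961 to 16971910, had no peak in either replicate. Rarb was also low in the class of the longest genes: with genes put in 10 classes by record length, it lay at percentile 11.6 of that class, whose median was 5.99%. The class also holds much shorter records, such as that of Ncor1 with 142 kb, so it does not match the length of Rarb. At the 5' end of its record, no peak lay within 2 kb in either replicate, and the nearest replicated peak was 7.73 kb upstream. The RefSeq start whose promoter is printed above lies 507 kb downstream of that end. There a replicated peak of 699 bp, from 16574492 to 16575190, began 286 bp downstream, with a signal value of 3.36. Upstream of this start the nearest peak was at 22.5 kb in the replicated list, and at 1700 bp in replicate 2. The half-sites themselves lay outside peaks in both replicates. Of the other replicated peaks of this locus, 2 lay in the record of Top2b, a topoisomerase gene beyond the 3' end, and the widest (from 16433202 to 16434584) and the highest in signal (from 16443620 to 16444470) lay near the 3' end of Rarb, which is at 16430839.

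**Figure D2:**
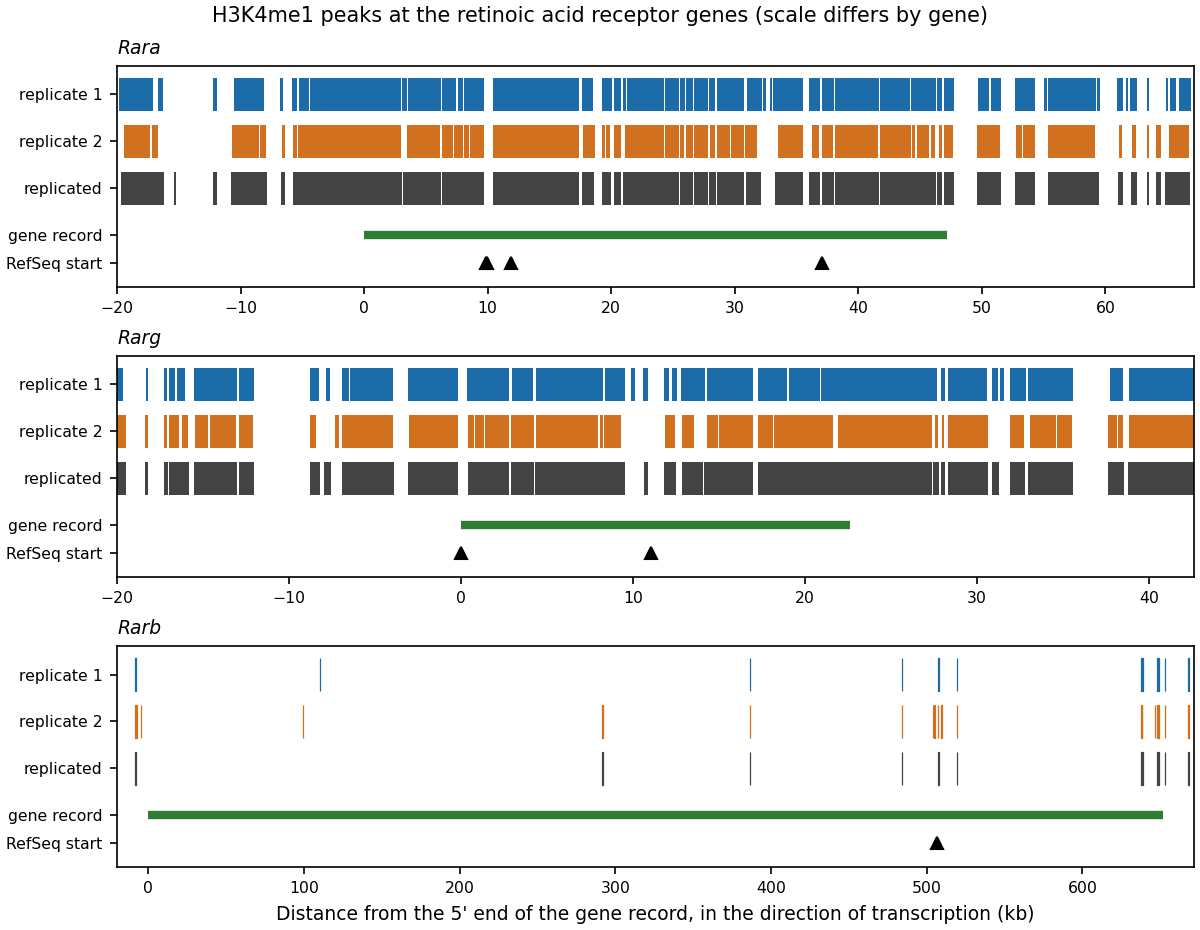
Peaks of replicate 1, replicate 2 and the replicated list along the loci of Rara, Rarg and Rarb, by distance from the 5' end of the gene record in kb; green bars are gene records, triangles RefSeq starts, and peaks of Rarb are drawn with a minimum line width. Peaks fill most of Rara and Rarg, whereas the 10 replicated peaks of Rarb are scattered over 651 kb.

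The retinoid X receptor genes lay between these extremes. Rxrb, on chromosome 17 from 34031812 to 34038403, is short, and its record had 54.1% in replicate 1 and 56.6% in replicate 2. Its widest peak, 3026 bp from 34028189 to 34031214, was also the one with the highest signal value (12.5) and ended 598 bp upstream of the first start, in Slc39a7, a zinc transporter gene. Other genes' records made up 61.9% of the Rxrb locus, and outside them coverage was 28.8% and 28.7%, against 41.4% and 36.6% for the whole locus. Rxra, on chromosome 2 from 27676445 to 27763319, had no other protein-coding gene in its locus. Its record was covered by 32.4% and 29.6%, while the 20 kb upstream had only 7.03% and 5.46%. The widest peak of Rxra, of 4273 bp from 27743744 to 27748016, had the highest signal value of the locus (10.7) and was intragenic, 34.5 kb from the nearest start.

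The binding protein genes differed from each other. Crabp2 encodes a carrier that brings retinoic acid to the nuclear receptors, and Crabp1 a related cytosolic carrier. Crabp2, on chromosome 3 from 87948693 to 87953372, had 95.0% of its record in peaks in replicate 1 and 78.8% in replicate 2, the largest gap between replicates for any of the 9 records. A joined domain of 10366 bp, from 87943544 to 87953909, contained the whole record. In the 20 kb upstream the replicates had 59.4% and 62.3%, against 26.1% and 25.1% downstream. The peak with the highest signal value of all 9 loci, 15.8 at rank 25 of the replicated list, lay in this locus from 87971870 to 87974456, but 23.2 kb from the start of Crabp2 and in the record of Nes, the nestin gene. Outside other genes' records Crabp2 had 44.1% and 40.8%. Crabp1, on chromosome 9 from 54764748 to 54773110, had 27.5% and 28.3% of its record covered. It held 8 replicated peaks of 523 to 1433 bp, with signal values of at most 5.94. A pair of these flanked its start, ending 96 bp upstream and beginning 135 bp downstream. The widest and highest, from 54772307 to 54773739, lay across the 3' end of Crabp1.

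Aldh1a2 and Stra6 also differed. Aldh1a2 encodes the main retinaldehyde dehydrogenase of the early embryo and lies on chromosome 9 from 71215789 to 71296243. Its 6 replicated peaks all lay from 6.39 kb upstream to 16.5 kb downstream of its start, by their centres. From there to the edge of the locus, 82771 bp held no peak in either replicate, and the downstream 20 kb had 0% in both. With the 20 kb on each side of the record's 5' end in place of the whole locus, coverage of Aldh1a2 was 15.6% ± 0.113 in place of 5.17%, and that of Rarb was 1.86% ± 1.61. No median of all genes is given for this window, so neither value can be called high or low. The 5' end of the Rarb record is no listed RefSeq start, unlike that of Aldh1a2. Around the start of Aldh1a2 the mark was one-sided. Of the 2 kb downstream 69.9% lay in peaks in replicate 1 and 57.5% in replicate 2, and of the 2 kb upstream 0% in both. Stra6, the receptor that takes up retinol from its plasma carrier, is on the same chromosome from 58063793 to 58154004. Its record overlaps Ccdc33, and records of Ccdc33 and Islr made up 59.9% of the locus. Outside them, coverage was 23.6% and 23.9%. The highest signal value (11.1) was at an intragenic peak from 58139590 to 58141575, 4.93 kb past the last RefSeq start, and the widest peak (4349 bp) lay in the part shared with Ccdc33.

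**Figure D3:**
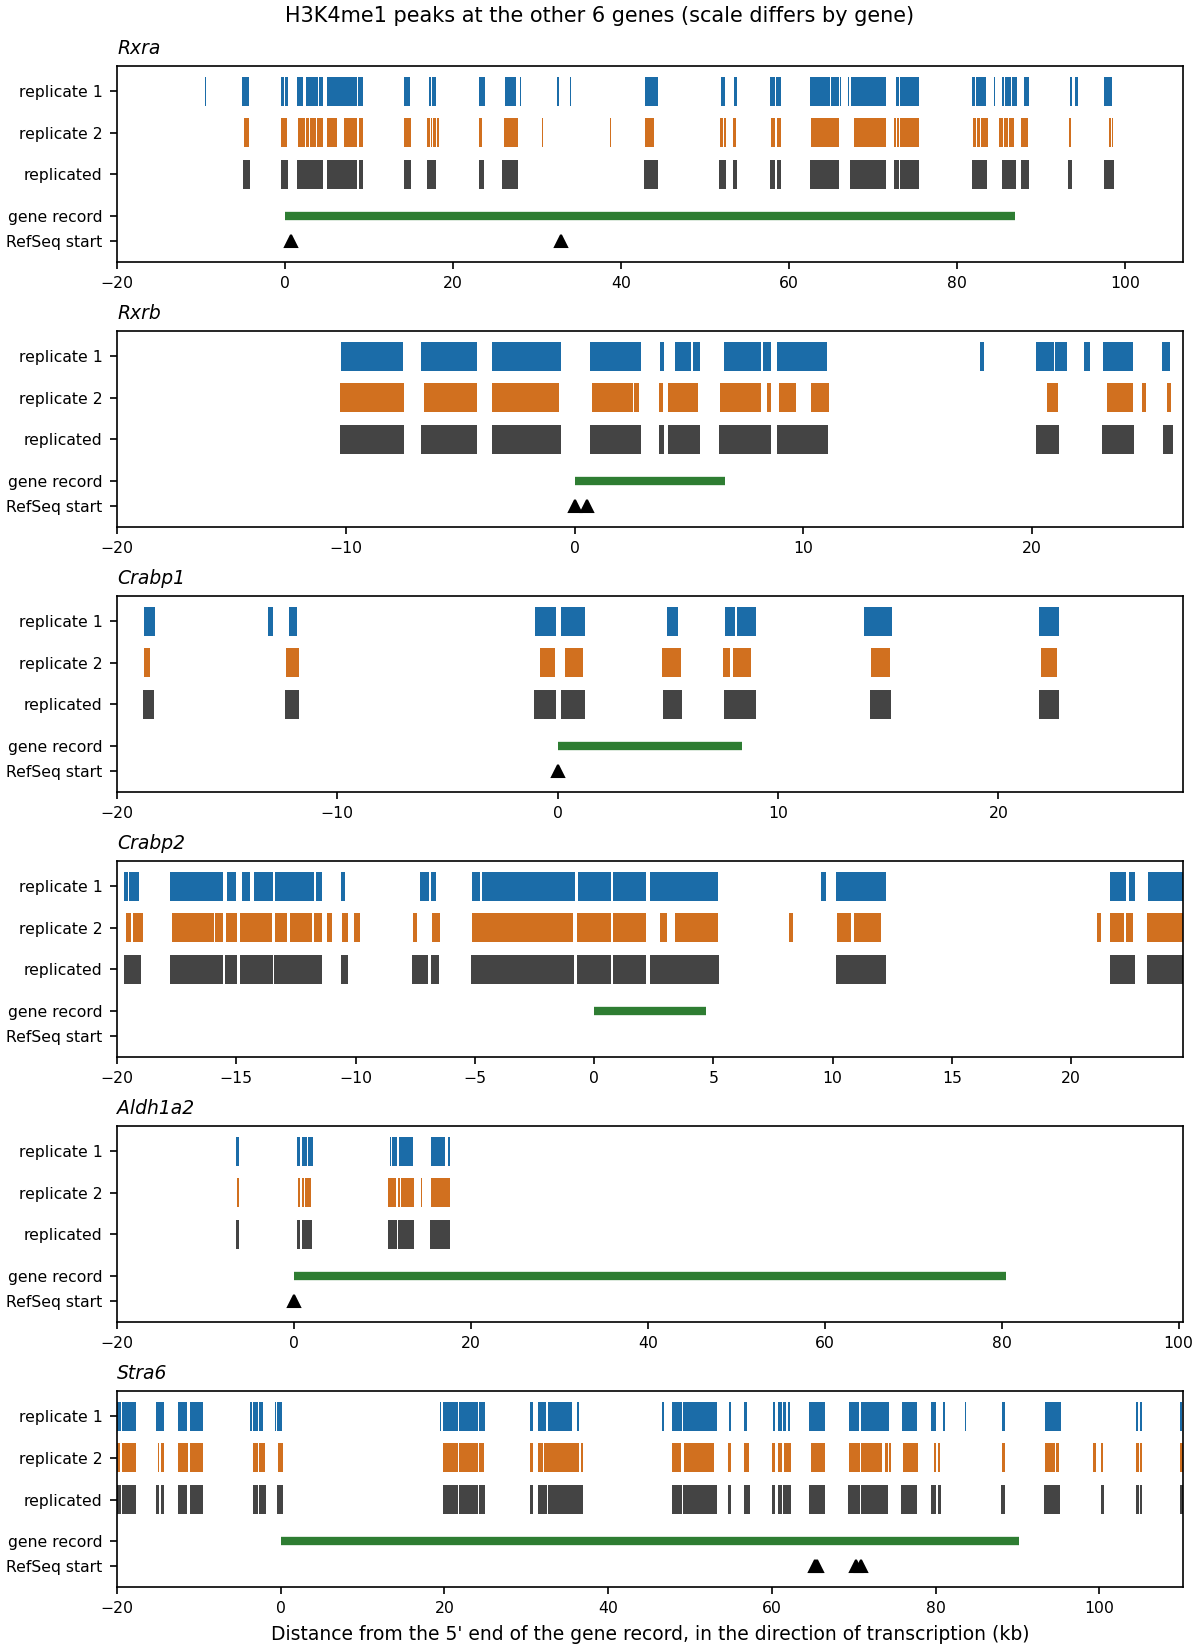
Peaks of both replicates and the replicated list at Rxra, Rxrb, Crabp1, Crabp2, Aldh1a2 and Stra6, by distance from the 5' end of the gene record in kb; green bars are gene records and triangles RefSeq starts (none was matched for Crabp2). The 6 replicated peaks of Aldh1a2 all lie near its start, and those of Rxra spread over the whole record.

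**Figure D4:**
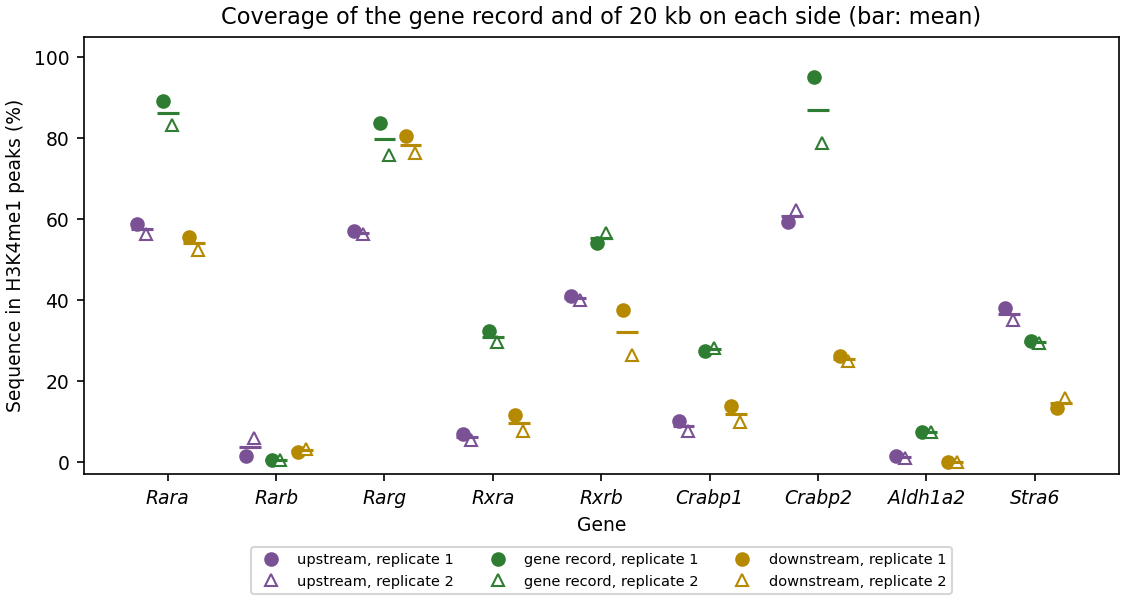
Percent of the 20 kb upstream, of the gene record and of the 20 kb downstream that lay in peaks, in replicate 1 (filled circles) and replicate 2 (open triangles), with bars at the mean. Coverage of the record exceeded that of both flanks in each replicate at Rara, Rxra, Rxrb, Crabp1, Crabp2 and Aldh1a2, and at Rarg the record and the downstream side had means of 79.9% and 78.4%.

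Promoter peaks were the rule. A replicated peak lay within 2 kb of the 5' end of the record at 8 of the 9 genes, against 72.8% of all genes, and Rarb was the one without. By RefSeq starts, each of the 8 genes that had them, Rarb included, had a replicated peak within 2 kb of at least 1, against 72.5% of all genes with such starts. That is not a like comparison, because more starts per gene give more places for a peak. The 8 genes had 17 starts, and the 17492 genes behind the 72.5% had 21263. By start, 16 of the 17 had a replicated peak within 2 kb, against 73.7% of all RefSeq starts. The exception was the internal start of Rxra at 27709292, where replicate 1 had peaks on both sides and replicate 2 none. Starts of 1 gene can lie close together, so they are not independent.

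At most RefSeq starts of the members, as of all genes, the start base lay outside replicated peaks. The start base lay inside a replicated peak at 5 of the 17 starts, against 17.2% of all starts: the Rara starts at 98939711 and 98964872 and 3 of the 4 starts of Stra6. The other 12 were outside, among them the first RefSeq starts of Rara, Rarg, Rxra and Rxrb. The 5' end of the record was no listed start at 5 genes, and 4 of these ends (Rara, Rxra, Crabp2 and Stra6) lay inside a replicated peak and inside peaks of both replicates, while that of Rarb did not. At the Rara start at 98937696, peaks ended 163 bp upstream in replicate 1 and 218 bp in replicate 2, and resumed 566 and 569 bp downstream. The 5 starts inside peaks had 5 to 10 CpG dinucleotides in their 300-base window, with a median of 5, and the 12 outside had 1 to 55, with a median of 18.5. All RefSeq starts had a median of 13. The ranges of these groups overlapped, and this is a description with no test.

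The following stretches of 120 bases before 5 starts on the plus strand show how CpG content varied, with CpG in capitals. The first 3 are from Rara, with a start in a gap and both starts inside peaks, and the second gap start of Rara, at 98937718, is not shown. The others, both outside peaks, are Aldh1a2, marked only downstream, and the internal Rxra start without a replicated peak.
Rara, start in a gap, chr11:98937576-98937695: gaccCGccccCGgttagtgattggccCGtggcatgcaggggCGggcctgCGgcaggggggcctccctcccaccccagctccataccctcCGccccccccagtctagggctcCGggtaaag
Rara, first start inside a peak, chr11:98939591-98939710: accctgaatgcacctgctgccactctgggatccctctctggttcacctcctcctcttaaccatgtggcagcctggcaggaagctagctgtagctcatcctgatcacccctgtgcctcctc
Rara, second start inside a peak, chr11:98964752-98964871: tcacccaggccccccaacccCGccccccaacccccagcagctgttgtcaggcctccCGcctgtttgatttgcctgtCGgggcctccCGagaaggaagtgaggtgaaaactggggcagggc
Aldh1a2, chr9:71215669-71215788: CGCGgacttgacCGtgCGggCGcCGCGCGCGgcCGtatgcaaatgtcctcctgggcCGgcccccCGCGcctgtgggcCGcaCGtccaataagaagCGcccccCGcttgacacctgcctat
Rxra, internal start, chr2:27709172-27709291: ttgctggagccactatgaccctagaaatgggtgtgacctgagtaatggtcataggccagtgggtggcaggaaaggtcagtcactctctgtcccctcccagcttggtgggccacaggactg
These stretches hold 7, 0, 4, 17 and 0 CpG in that order, and the gap start of Rara not shown has 6. The Rara stretch at the first start inside a peak and the Rxra stretch at a start outside one both had 0 CpG.

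**Figure D5:**
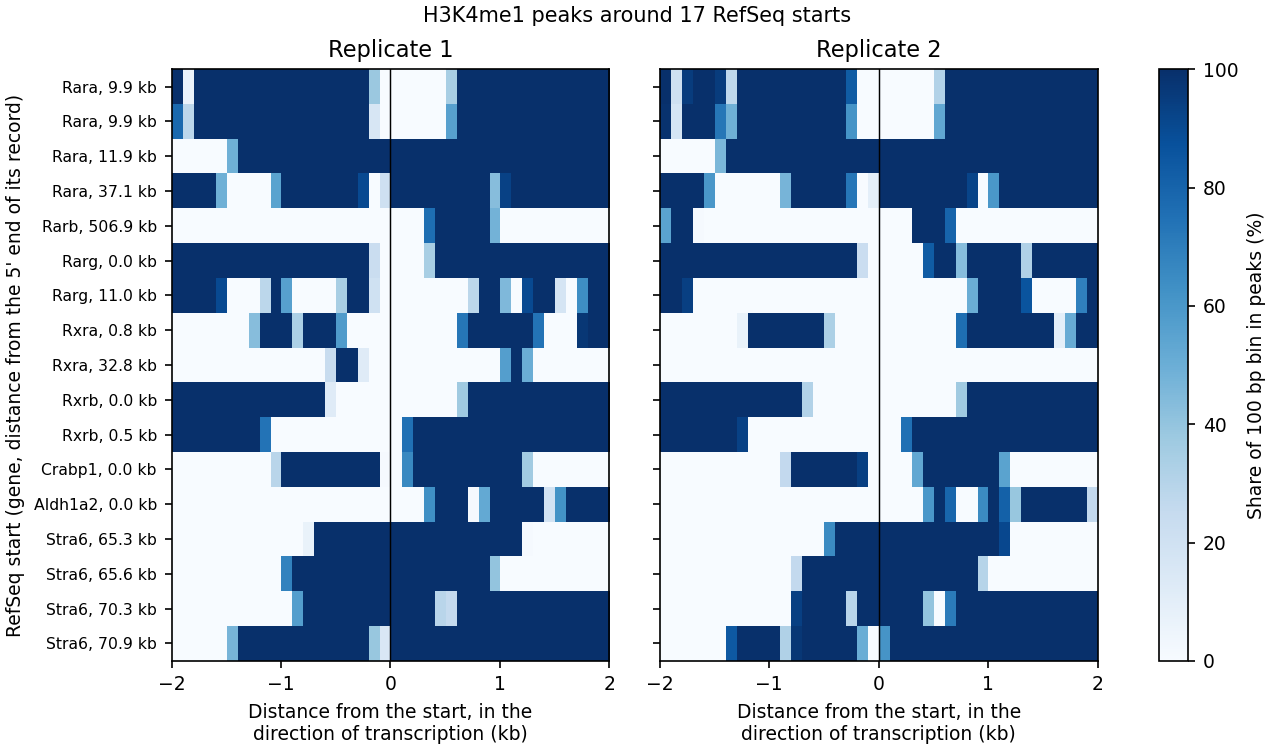
Share of each 100 bp bin in peaks, in percent, from 2 kb before to 2 kb after 17 RefSeq starts of 8 genes, in replicate 1 (left) and replicate 2 (right); rows give the gene and the distance of the start from the 5' end of its record. Most rows are white at the start itself. The start base lay in a peak at 6 starts in replicate 1 and at 5 (2 of Rara and 3 of Stra6) in replicate 2. Those 5 also have it in a replicated peak, and the last Stra6 start has it in a peak of replicate 1 only. The last Rara row is mostly white in the bins just before the start, and the Rarb row has peaks just downstream.

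Repeats spaced by 5 bases were also sought in the whole loci on mm9, the build of the genome sequence at hand, with the authors' mm9 peak lists and GENCODE vM1 records. The Rarb locus from that annotation is 428 kb long, against 691493 bp from RefSeq on mm10. The 9 loci held 8 such repeats, and 3 lay in peaks of the mm9 series list: those of Rara, Rarg and Rxrb. These 3, and 1 at Rarb outside the peaks, are shown to place matches to the half-sites against the mark. Each is written 5' to 3' on its own strand with the half-sites in capitals, and binding was not measured.
Rara, chr11:98821322-98821338 with 7 bases on each side: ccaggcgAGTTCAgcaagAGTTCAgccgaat
Rarg, chr15:102081248-102081264 with 7 bases on each side: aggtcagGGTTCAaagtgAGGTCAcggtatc
Rxrb, chr17:34173785-34173801 with 7 bases on each side: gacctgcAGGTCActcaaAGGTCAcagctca
Rarb, chr14:17408027-17408043 with 7 bases on each side: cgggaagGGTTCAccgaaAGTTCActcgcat
The Rara repeat began 404 bp and ended 388 bp upstream of an internal start and lay in a peak of replicate 1 but not of replicate 2. The Rarg and Rxrb repeats lay in peaks of both replicates, within the gene records. The Rarb repeat, the one printed above on mm10, ended 41 bp upstream of an internal start and lay in no mm9 peak. Peaks of the mm9 series list took up 91.0% of the Rara locus, 92.0% of Rarg, 54.5% of Rxrb and 2.52% of Rarb, and the positions of the repeats are to be read against these shares. Of the other 4 repeats, 2 at Rarb and 1 each at Crabp2 and Stra6, none lay in a peak of that list. Spacings of 2 and 1 bases gave 15 and 12 repeats in the 9 loci, of which 7 and 3 lay in peaks. With spacing 2 these were 3 at Rarg and 1 each at Rara, Rarb, Crabp2 and Stra6. With spacing 1 they were 1 each at Rara, Rarg and Rxrb. In the other loci, peaks took up 68.7% at Crabp2, 41.0% at Stra6, 35.4% at Rxra, 26.5% at Crabp1 and 7.80% at Aldh1a2. These counts, too, are to be read against the share of each locus in peaks.

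The other 30 genes of the retinoid pathway, measured the same way, had a median coverage of 17.4%, and 21 were above the median of all genes. A promoter peak was found at 28 of the 30, against the 72.8% above. Of 9 genes of retinol handling and synthesis, 4 exceeded the median, from 1.51% at the retinaldehyde dehydrogenase gene Aldh1a1 to 21.0% at Rdh10, which oxidises retinol. Aldh1a1 had no promoter peak. The 3 genes of the degrading enzymes were above the median, led by Cyp26a1 with 29.5% and with Cyp26b1 lowest at 19.3% in replicate 1 and 14.6% in replicate 2. Among other receptors and carriers, 4 of 5 were above, with 66.9% at Ppard, a nuclear receptor gene, and 4.60% at the fatty acid binding protein gene Fabp5. Among coregulators, 6 of 7 were above, with 78.2% at the coactivator gene Ncoa3 and 12.6% at Nrip1. Of 6 retinoid-responsive genes, 4 were above. The lowest was Rarres2, the chemerin gene, with 6.76% and no promoter peak in the replicated list. For Rarres2, replicate 1 and the pooled list had a peak within 2 kb of the 5' end, and replicate 2 had none. Rara and Rarg, at 72.3% and 72.0%, thus lay above all of these pathway genes except Ncoa3.

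Profiles of coverage over 10 kb on each side of the record's 5' end, in 100 bins, were compared with those of all genes on other chromosomes. The profiles most like that of Rara were those of Gnas (Pearson r = 0.67), Arhgap45 (0.58) and Lhb (0.58). For Rarg they were Wwc1 (0.67), Atp8b2 (0.66) and Lrp5 (0.66). For Rarb they were Defb45 (0.88), Nat8f6 (0.87) and Tmprss11b (0.86), but only 3.73% of the Rarb window was covered, so that comparison rests on few bins. These coefficients are across bins of the same 2 libraries and are descriptions only.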

How the data were processed

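H3K4me1 ChIP-seq peak lists of 2 replicates were used as deposited, as narrowPeak lists on mm10 (each replicate, pooled, replicated) and broadPeak lists on mm9. Aligner and caller: not given in the sources used here. The mm10 lists deposited by the authors give a signal value, a display score, a −log10 p and a −log10 q per peak, and those on mm9 deposited by the authors have signal, p-value and q-value columns. The read-me lists name 1 more source file for replicate 2 than for replicate 1, without saying what it is. Signal values were used only to rank peaks within a list.

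Records came from RefSeq GRCm38.p6. Strands came from the RefSeq promoter table for 17492 genes and from GENCODE vM1 (mm9) for 4044, Crabp2 among them. The other 351 had no strand and were left out of promoter counts. Overlap counted from 1 bp, and coverage was cut at the locus edges. No coordinate was converted between builds, and exons on mm10 were not used here. Records ended at the same base as a listed start for 4 of the 9 genes. The members and lists were chosen with earlier results of these data known. Named genes were all members, the widest and highest-signal replicated peak of each locus, the highest, the lowest and any unmarked gene of each pathway group, and the 3 most similar profiles for Rara, Rarb and Rarg. One result under this rule is not reported here. The interval and motif functions were tested on simulated data. Alternatives were other flanks, promoter distances, gaps, thresholds, lists and builds, and each replicate alone. Python 3.11.15, numpy 2.4.6, pandas 2.3.3 and matplotlib 3.10.9 were used.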

Additional observations from a re-analysis of the deposited data

How the results depend on the processing

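Of 47 counts recomputed under alternatives, 39 were within 1.5 times of the count reported. The number of replicated peaks in the 9 loci, 168, became 294 with flanks of 50 kb, 92 without flanks, 68 among the 50000 strongest peaks, 89 with the mm9 lists and GENCODE vM1 records, and 82 or 48 when peaks were joined across 1 kb or 3 kb. Among the 50000 strongest replicated peaks, promoter peaks were found at 5 of the 9 members and 14 of the 30 pathway genes. The share of all genes at this cut is not given here, so neither count can be called high or low. No replicated peak was left at Crabp1, Rarb or Aldh1a2. With the 50000 strongest peaks of each replicate, coverage was 0% at Crabp1 and Rarb and 1.37% at Aldh1a2. The number of members above the median of all genes was 7 or 6 in every alternative. It was 6 for the 50000 strongest peaks, the mm9 lists, replicate 2 alone and, chosen after seeing the data, the median of genes in the same of 10 classes of record length. Of 72 coverage values of single members, 42 moved by more than 1 SD of 2 replicates. The 72 include the values of each replicate alone, which could not move that far. With 2 replicates each always lies within 1 SD of their mean, so those values say nothing about stability. Coverage of Rara ranged from 55.0% (flanks of 50 kb, or the strongest peaks) to 88.6% (mm9), that of Rarg from 55.6% to 90.9% and that of Rarb from 0% to 1.40%, the last over the shorter Rarb record used on mm9. With the mm9 lists, which are broadPeak, the median of all genes was higher too, at 21.0% against 12.8% on mm10. No paired analysis was possible because the study has 1 group. Peak lists hold no read counts, so what depth limits cannot be stated.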
